A study of Homo sapiens with 15 samples.

Results

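Kinesins are motor proteins that burn ATP to move along microtubules, or to shorten them. Those of the mitotic class build and move the spindle, capture and align chromosomes and drive the final separation of the daughter cells, and in most cells their mRNAs are made mainly in G2 and M phase. Those of the transport class carry vesicles, mitochondria, endosomes and mRNA, and are needed in cells that do not divide as much as in those that do. Kinesin mRNAs were described here as all rows of the count file whose symbol is KIF or KIFC followed by a number and at most 1 letter. That rule found 42 of 26485 gene symbols: 14 mitotic kinesins, 15 transport kinesins and 13 that act in cilia or have other roles. Kinesins whose symbol has another form are not members, and CENPE, a kinesin of the kinetochore, is given among the spindle partners.

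RNA-seq read counts came from 15 libraries of 2 human myeloid leukemia cell lines, ML1 and U937, with 3 libraries in each of 5 groups. Both lines were given diluent or 10 nM prexasertib, an inhibitor of the checkpoint kinase CHK1, which keeps cells with damaged or unfinished DNA out of mitosis, and U937 was also given 10 nM prexasertib together with 350 nM LSN622666 (the combination). All groups, controls included, were treated for 24 h with 5 µM of the caspase inhibitor Q-VD-OPh in the medium, and no group analysed here received LSN622666 alone. The series looked for mRNA changes of candidate transcription factors of TNFα, so kinesins were not its subject. The labels do not say whether the 3 libraries of a group came from separate cultures, and each line is a single established line, so the tests compare groups with the spread seen among these libraries, which may be technical.

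Libraries held 49011222 to 87301014 counts, of which kinesins took 0.1389% to 0.3712%. Levels are given as CPM (read counts scaled to the TMM-adjusted library total) and changes as log2 fold changes ± standard error from edgeR's quasi-likelihood test. Below, "called" means that the Benjamini-Hochberg adjusted value, over 17243 tested genes, was under 0.05. Where the libraries of compared groups did not overlap for a gene, this describes its values only. Non-overlap was not counted over all tested genes and adds no support to a call. The low-count filter passed 35 of the 42 kinesins: 12 mitotic, 14 transport and 9 others. Of these, 30 were above the filter in all 5 groups. The other 5 (KIF5A, KIF5C, KIF13A, KIF17 and KIF25) passed through 1 to 3 groups only, so a difference for them was in part set by the filter. Of the 10 myeloid markers, PTPRC, which encodes CD45, was at 79.1 to 285 CPM over the 15 libraries, while MPO, the granule peroxidase, was at 349 to 1060 CPM in ML1 and only 1.92 to 5.64 CPM in U937. The markers CD3E of T cells, EPCAM of epithelium and INS of pancreatic islets were at 0 in every library.

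Promoters are shown first because short motifs were more frequent in promoters of mitotic kinesins than of transport kinesins. Any part of these motifs in the changes described below was not tested. The CHR element, TTTGAA or TTCGAA, is known to bind the MuvB complexes that hold cell cycle genes silent in resting cells and switch them on in G2 with MYBL2 and FOXM1, and CCAAT is bound by NF-Y. RefSeq promoters (GRCh38.p14, 250 bases before to 50 after a start site) were found for 34 of the 42 kinesins. Searching both strands, a CHR motif lay in a promoter of 11 of 14 mitotic kinesins (78.6%), 1 of 11 transport kinesins (9.09%, KIF5B) and 1 of 9 others (11.1%, KIF24), against 19.5% of all 27305 genes in the promoter table. CCAAT was in 11 of 14 mitotic kinesins (78.6%), 4 of 11 transport kinesins (36.4%) and 3 of 9 others (33.3%), against 39.7% of all genes. Both motifs stood in 1 promoter of 10 mitotic kinesins (71.4%), of KIF5B and of KIF24, against 7.85% of all genes. The mitotic kinesins without a CHR motif in these windows were KIF2B, KIF2C and KIF20A. The 14 include KIF4B, an intronless copy of KIF4A that has both motifs and whose promoter repeats part of that of KIF4A. KIF4B and KIF2B were under the low-count filter, so the motif counts cover more genes than the tests of change. TTCGAA reads the same on both strands and was counted once a position, and a match is a run of letters, not a measured binding site.

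The windows before the start sites of 4 mitotic kinesins and 2 transport kinesins are examples, with both motifs, read on either strand, in capitals. The contrast lies in the counts above and not in these windows, since KIF5B is the only transport kinesin found with a CHR motif. CCAAT on the other strand reads ATTGG, and the reverse of TTTGAA is likewise in capitals. They were picked after motifs and values had been seen, and bases that GENCODE places inside the gene were left out. They lie at chr10:92592980-92593129 on the plus strand (KIF11), chrX:70289954-70290089 on the plus strand (KIF4A), chr1:200620752-200620901 on the minus strand (KIF14), chr17:44947774-44947923 on the minus strand (KIF18B), chr10:32056432-32056575 on the minus strand (KIF5B) and chr17:4997800-4997947 on the plus strand (KIF1C).
KIF11: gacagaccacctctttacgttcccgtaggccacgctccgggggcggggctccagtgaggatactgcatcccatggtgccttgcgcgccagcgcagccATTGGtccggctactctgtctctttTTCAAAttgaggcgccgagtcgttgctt
KIF4A: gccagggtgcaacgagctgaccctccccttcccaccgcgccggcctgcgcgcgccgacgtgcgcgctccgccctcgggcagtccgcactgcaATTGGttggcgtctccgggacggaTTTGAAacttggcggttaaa
KIF14: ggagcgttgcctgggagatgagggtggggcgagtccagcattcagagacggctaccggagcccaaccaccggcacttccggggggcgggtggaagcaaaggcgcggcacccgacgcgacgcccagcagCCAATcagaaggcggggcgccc
KIF18B: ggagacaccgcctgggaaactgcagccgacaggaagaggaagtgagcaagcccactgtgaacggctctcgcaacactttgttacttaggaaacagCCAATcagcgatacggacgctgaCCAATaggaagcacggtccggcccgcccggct
KIF5B: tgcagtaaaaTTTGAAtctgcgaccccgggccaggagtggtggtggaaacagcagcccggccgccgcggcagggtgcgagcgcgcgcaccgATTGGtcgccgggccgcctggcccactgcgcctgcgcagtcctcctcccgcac
KIF1C: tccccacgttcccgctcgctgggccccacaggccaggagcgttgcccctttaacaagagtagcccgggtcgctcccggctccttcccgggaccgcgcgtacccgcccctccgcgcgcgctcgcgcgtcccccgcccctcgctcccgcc
In KIF11 the CCAAT motif starts 53 bases and the CHR motif 28 bases before the start site, and in KIF4A these distances are 58 and 34 bases. KIF14 and KIF18B hold their CHR motif just after the start site, outside the printed window, with CCAAT 22 bases before it in KIF14 and 55 and 32 bases before it in KIF18B. KIF5B has its CHR motif 140 bases before the start, far from its CCAAT at 59 bases, and KIF1C has neither.

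With diluent, mitotic kinesins were the more abundant class in both lines. Their summed level was 1705 to 2016 CPM in ML1 and 1547 to 1646 CPM in U937, against 514.2 to 544.5 and 552.5 to 623.9 CPM for transport kinesins. Per kilobase of exon, so that genes can be compared, KIF2C led in both lines with 64.4 CPM per kb in ML1 and 71.7 in U937. KIF2C is a depolymerase that frees wrongly attached kinetochores. KIFC1, a minus-end motor that gathers spindle poles, was level with it in ML1 at 64.3 CPM per kb, and KIF22, a motor on chromosome arms, came next in U937 with 47.5. KIF18A, which damps chromosome movement at metaphase, was the lowest tested mitotic kinesin, with 5.65 and 5.4 CPM per kb. Among transport kinesins KIF5B, the kinesin-1 heavy chain found in most cells, stood far above the rest, with 38.1 CPM per kb in ML1 and 32.4 in U937. The next transport kinesins were KIF3B, a kinesin-2 subunit, in ML1 (8.6) and KIF1C, a kinesin-3 vesicle motor, in U937 (12.3). KIF2A, a depolymerase used both at spindle poles and elsewhere, and put with the other kinesins here, was at 18.8 and 23 CPM per kb.

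**Figure D1:**
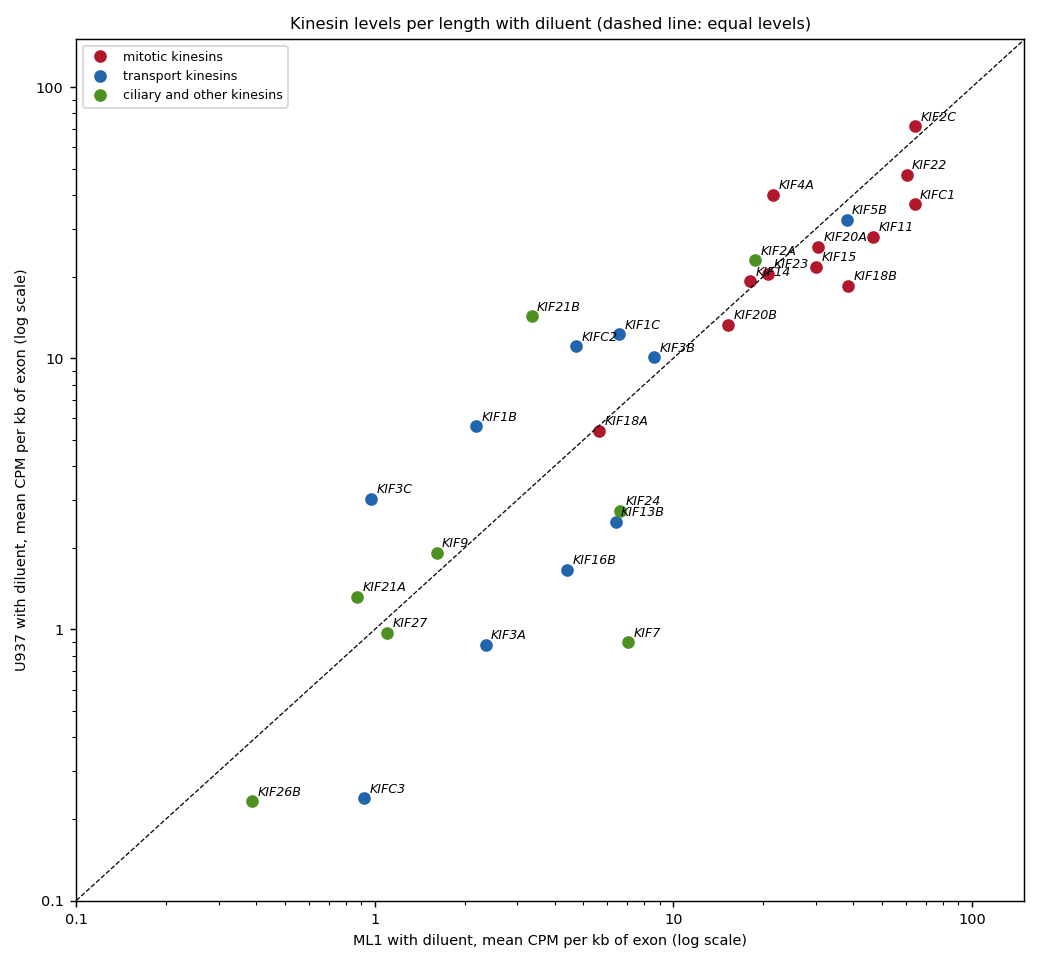
Mean CPM per kilobase of exon with diluent in ML1 (x axis) and U937 (y axis), both on log scales, for 30 tested kinesins; the dashed line marks equal levels and 5 low-count kinesins are left out. Mitotic kinesins (red) sit at the top right near the line, while transport kinesins (blue) and the others (green) scatter to both sides of it.

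Kinesins of every class differed between the 2 lines, in both directions. In U937 against ML1 with diluent, 11 of 14 tested transport kinesins were called (6 higher, 5 lower), as were 6 of 12 mitotic kinesins (1 higher, 5 lower) and 7 of 9 others (4 higher, 3 lower). Over all tested genes 61.4% were called in this comparison (32% higher, 29.4% lower), and the classes were not tested against that background. The called KIF5C, KIF17, KIF13A and KIF25 passed the low-count filter in only some groups, so these counts were in part set by it. With a filter of 5 CPM in 3 libraries 9 transport kinesins were called (5 higher, 4 lower). That filter passes fewer than 14 transport kinesins, here and below. Among neuron-associated members, KIF5C, a kinesin-1 heavy chain, had 1193 counts over the 3 U937 libraries and 4 in ML1, a ratio of 345 (95% counting interval 135 to 1270). KIF17, a kinesin-2 motor, had 732 counts against 3, a ratio of 283 (96.3 to 1370). KIF5C was at 6.34, 7.76 and 6.82 CPM in U937 and KIF17 at 4.95, 3.46 and 4.15 CPM, so both were low but present in every U937 library.

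Motors of the kinesin-3 and kinesin-2 families were among those lower in U937. KIF13B, a kinesin-3 motor of membrane cargo, was at 64.4, 73.9 and 75.5 CPM in ML1 and 29.4, 27.6 and 26.6 in U937, 2.56-fold lower (log2 fold change -1.36 ± 0.16, adjusted p = 7.7e-07). KIF16B, an endosome motor, was 2.67-fold lower (-1.42 ± 0.18, adjusted p = 1.9e-06), and KIF3A, a kinesin-2 subunit, 2.68-fold lower (-1.42 ± 0.15, adjusted p = 1.5e-07). KIF3C, which can replace KIF3B beside KIF3A, was higher in U937, at 20.9, 19.7 and 17.6 CPM against 6.26, 6.34 and 6.09 (1.64 ± 0.21, adjusted p = 1.9e-06). KIF1B, a carrier of mitochondria and synaptic vesicle precursors, was 2.58-fold higher (1.37 ± 0.11, adjusted p = 9.1e-09). The libraries of the 2 lines did not overlap for any of these 5 genes. Low-level KIF13A, with 2 counts in U937 and 30 in ML1, and KIFC3, 3.86-fold lower, were lower in U937 too, and KIF1C and KIFC2 were higher, by 1.88-fold and 2.36-fold. KIF3B, KIF5A and KIF5B were not called.

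Of the other kinesins, KIF21B, which stops microtubule growth in neurons and lymphocytes, was at 121, 218 and 181 CPM in U937 and 39.6, 40 and 42.4 in ML1 (2.09 ± 0.18, adjusted p = 2e-08). KIF7, the Hedgehog regulator at the tip of the cilium, ran the other way, at 35.8, 35.2 and 34.8 CPM in ML1 and 3.42, 5.18 and 4.85 in U937 (-2.98 ± 0.17, adjusted p = 6.4e-11). Both separate the lines with no overlap. Exons of KIF7 share 11.8% of their bases with TICRR. KIF21A (0.59), KIF2A (0.29) and low-count KIF25 were also higher in U937, and KIF24 (-1.28) and KIF26B (-0.74) lower. The only mitotic kinesin higher in U937 was KIF4A, a chromokinesin that limits midzone microtubule length, at 192, 185 and 168 CPM against 97.2, 103 and 93.3 (0.89 ± 0.13, adjusted p = 1.2e-05). KIF18B, KIFC1, KIF11, KIF15 and KIF22 were lower, by 2.08-fold, 1.73-fold, 1.66-fold, 1.38-fold and 1.27-fold. The call of KIF22 ended without any 1 of 4 libraries (largest adjusted p = 0.087, without ML1 diluent replicate 2), the call of KIF2A ended without ML1 or U937 diluent replicate 2 or 3 (0.09 to 0.16), with upper-quartile scaling (0.06) or no low-count filter (0.057), and that of KIF21A without U937 diluent replicate 2 (0.062).

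In ML1 all 12 tested mitotic kinesins fell with prexasertib. Calls over all genes were 48.8% (25.3% higher, 23.5% lower), so 12 of 12 lower stands beside a background of 23.5%, and the median change was -1.31 against 0.02 over all tested genes. Their summed level went from 1705 to 2016 CPM with diluent to 701.9 to 779.8 CPM, and their share of all kinesin CPM from 68.5% to 73.1% down to 46.2% to 50.4%. Fewer cells in G2 and M phase and less mitotic mRNA per cell cannot be told apart in bulk RNA.

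KIF11, the motor that pushes spindle poles apart, was at 219, 231 and 230 CPM with diluent and 74.5, 61.1 and 67.4 CPM with prexasertib. It fell 3.35-fold (-1.74 ± 0.14, adjusted p = 1.7e-08). KIF15, which can stand in for KIF11 on the spindle, went from 136, 168 and 173 to 46.4, 35.9 and 45 CPM. Its fall, 3.74-fold, was the largest of the class (-1.90 ± 0.14, adjusted p = 3.7e-09). For both, every treated library was below every diluent library.

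Motors of the midzone and of cytokinesis fell too. KIF20A, which brings the chromosomal passenger complex to the midzone, was at 116, 127 and 120 CPM with diluent and 27.7, 36.4 and 36.8 CPM with prexasertib (-1.85 ± 0.18, adjusted p = 1.9e-07). KIF14, needed for cytokinesis together with the kinase CIT, went from 119, 133 and 142 to 43.4, 32.2 and 38.7 CPM (-1.79 ± 0.17, adjusted p = 1.8e-07). KIF4A went from 97.2, 103 and 93.3 to 27.2, 29.5 and 33 CPM (-1.71 ± 0.13, adjusted p = 1.4e-08). KIF23, which with RACGAP1 forms the centralspindlin complex, went from 118, 147 and 146 to 58, 47.8 and 57.4 CPM (-1.33 ± 0.16, adjusted p = 1.9e-06). No treated library of these 4 genes reached a diluent library. The remaining 6 fell by less, from KIF18A (-1.29 ± 0.21, adjusted p = 6.6e-05), KIF18B, which shortens astral microtubules (-1.28 ± 0.17), KIF2C (-1.21 ± 0.14), KIF20B, a motor of cytokinesis (-1.20 ± 0.18), and KIFC1 (-1.15 ± 0.19, adjusted p = 5.4e-05) to KIF22 (-0.91 ± 0.13, adjusted p = 1.1e-05). Of the 14, KIF2B had no count in any library and KIF4B, a near-identical intronless copy of KIF4A whose reads cannot be safely parted from it, had at most 8, and neither was tested.

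**Figure D2:**
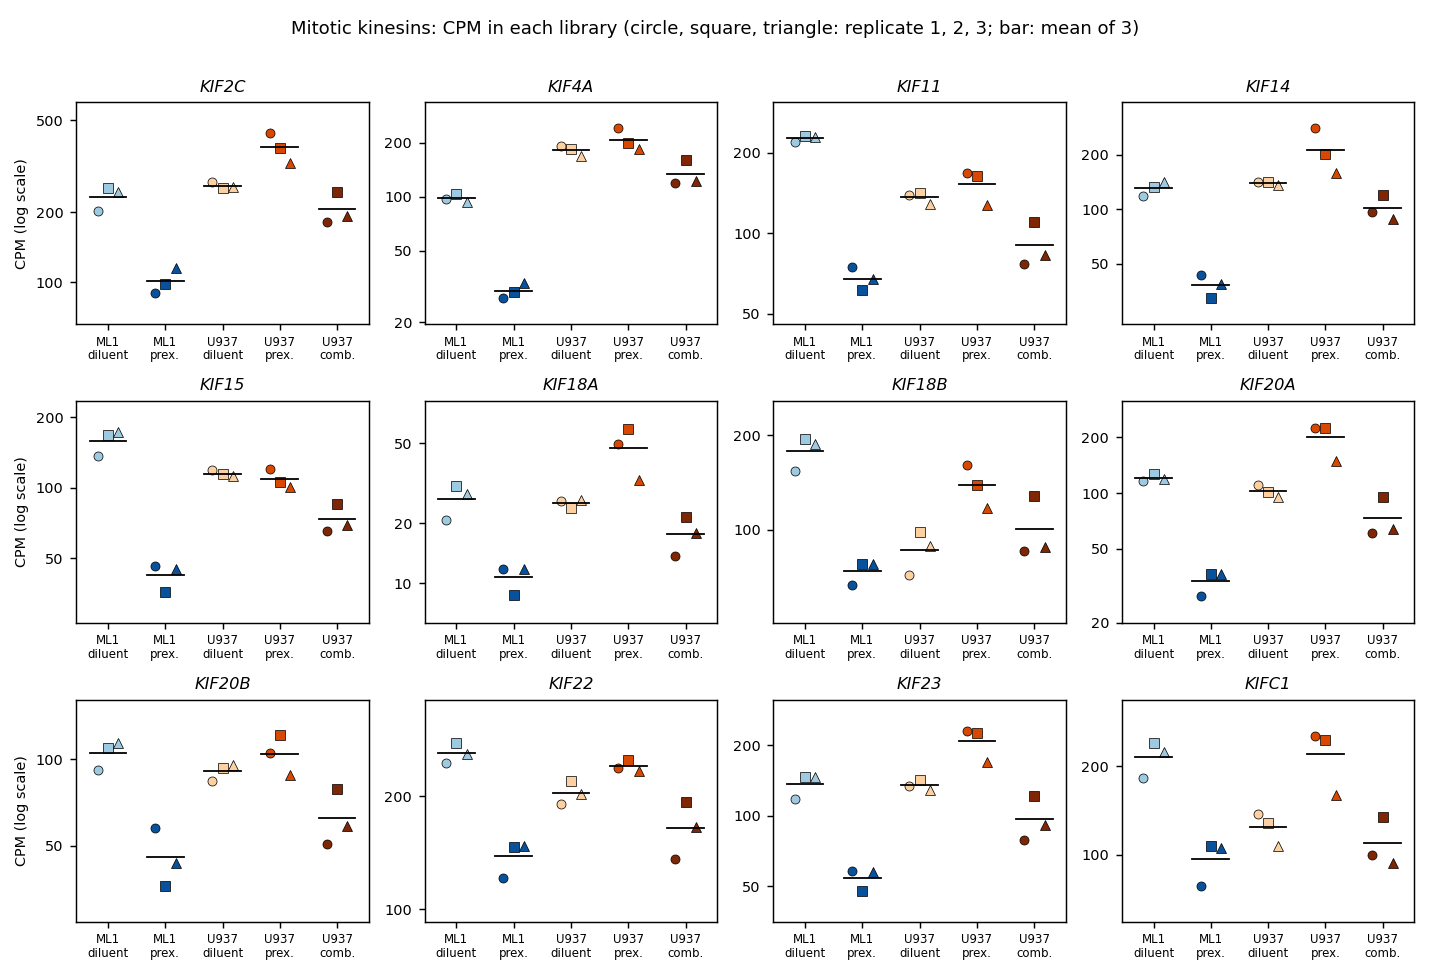
CPM on a log scale in each library for the 12 tested mitotic kinesins, by group (prex., prexasertib; comb., prexasertib with LSN622666); symbols are replicates 1 to 3 and the bar is their mean. The ML1 prexasertib libraries (dark blue) lie below the ML1 diluent libraries in every panel, whereas the U937 prexasertib libraries (orange) overlap or lie above the U937 diluent libraries.

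The partner genes fell alongside. All 22 spindle and midzone partners were lower in ML1 with prexasertib (median -1.42), against 23.5% of all tested genes. The smallest p-values were those of MAD2L1 (-2.36) and BUB1B (-2.12) of the spindle checkpoint and of CIT (-1.94). The kinesin CENPE went from 96.1, 129 and 125 to 43.6, 35 and 41.7 CPM (-1.54 ± 0.20, adjusted p = 4.3e-06). All 16 S phase genes were lower too (median -1.46), with MCM6 of the replicative helicase at -2.13. MKI67, a proliferation marker, went from 1190, 1070 and 1080 to 505, 351 and 453 CPM (-1.35 ± 0.18, adjusted p = 6.9e-06). Of 16 transcription regulators tied to CHR and E2F promoters, 9 were lower and 2 higher, beside 23.5% and 25.3% of all tested genes. FOXM1 fell from 266, 264 and 251 to 71.7, 70.1 and 89.4 CPM (-1.76 ± 0.16, adjusted p = 5.9e-08), and MYBL2 from 666, 617 and 576 to 170, 171 and 211 CPM (-1.75 ± 0.17, adjusted p = 1.6e-07). In the same libraries 7 of 10 myeloid markers rose and 1 fell, beside 25.3% higher and 23.5% lower of all tested genes. Their sum went from 2134 to 2410 CPM to 5220 to 6893 CPM. Most of that rise was LYZ, which went from 641, 499 and 401 to 3360, 4460 and 3060 CPM. The marker that fell was MPO, from 834, 1060 and 953 to 349, 619 and 554 CPM. The sum of the 10 markers of other cells, nearly all of it PECAM1, which myeloid cells also express, went from 46.67 to 58.11 CPM to 217.9 to 297.7 CPM. The part of either shift in the kinesin result was not tested.

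Transport kinesins in ML1 moved apart from the mitotic ones. Of 14 tested, 6 rose and 1 fell with prexasertib, against the background of 25.3% higher and 23.5% lower. Of the 6, KIF5A, KIF13A and KIF17 passed the low-count filter in only some groups, so this count was in part set by it. With a filter of 5 CPM in 3 libraries, which passes fewer than 14, 3 rose and 1 fell, and the median was 0.27 in place of 0.42. The background shares are those with the main filter, and neither count was tested against them. The sum of the transport kinesins went from 514.2 to 544.5 CPM to 589.1 to 639 CPM with no overlap. KIFC3, a minus-end motor of Golgi and cell junctions, was at 9.86, 8.39 and 8.33 CPM with diluent and 25, 32.1 and 32.6 CPM with prexasertib. It rose 3.37-fold (1.75 ± 0.20, adjusted p = 1e-06), the largest change among ML1 transport kinesins above 1 CPM in both groups. KIF3B went from 55.9, 54.4 and 47.2 to 83.6, 70.7 and 75.9 CPM (0.55 ± 0.12, adjusted p = 0.0014). KIFC2, a minus-end motor studied in neurons, went from 21.5, 19.8 and 21.6 to 33.6, 29.1 and 33.1 CPM (0.61 ± 0.11, adjusted p = 0.00017). The groups did not overlap for these 3 genes. KIFC2 shares 17.8% of its exon bases with FOXH1 on the other strand, and reads of overlapping genes cannot be parted because the library kit does not mark strand. Exons of KIF22 (13%), KIFC1 (12.7%) and KIF2A (8.97%), among others, also share bases with other annotated genes.

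A further 3 calls in ML1 rest on few counts. KIF13A, a motor of recycling endosomes, had 14, 10 and 6 counts with diluent and 133, 70 and 89 with prexasertib, a ratio of 11.5 (95% counting interval 7.87 to 17.3). KIF5A, a neuronal kinesin-1 heavy chain, had none with diluent and 16, 2 and 9 with prexasertib, at least 10.6-fold higher against a floor of 3 counts over the group. KIF17 had 3 counts with diluent and 17 with prexasertib, a ratio of 6.68 (1.93 to 35.6), and its call ended without prexasertib replicate 1 (adjusted p = 0.089). KIF3C alone fell, from 6.26, 6.34 and 6.09 to 3.06, 5.52 and 3.42 CPM (-0.64 ± 0.21, adjusted p = 0.017). That call ended without prexasertib replicate 1 (0.087) or 3 (0.073). KIF5B, with 224 and 240 CPM on average, was not called (0.10 ± 0.13, adjusted p = 0.54), nor were KIF1B (0.20), KIF1C (-0.12), KIF3A (-0.26), KIF5C, KIF13B (0.30) and KIF16B (-0.42, adjusted p = 0.054). KIF1A was at 0 in every ML1 library and was not tested.

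Of the 9 other kinesins tested in ML1, 4 fell and 1 rose, beside 23.5% of all tested genes lower and 25.3% higher. KIF2A went from 98.6, 82.6 and 87.8 to 46.2, 46.7 and 43.8 CPM (-0.98 ± 0.12, adjusted p = 2.1e-06). KIF26B, which has lost motor activity and acts in cell adhesion, went from 5.89, 4.71 and 6.16 to 2.89, 3.28 and 3.24 CPM (-0.83 ± 0.22, adjusted p = 0.0039). KIF21A, a regulator of microtubule growth at the cell edge, fell by 0.63 (adjusted p = 0.013) and was not called once prexasertib replicate 2 was left out (0.062). KIF24, which caps the mother centriole and holds back cilium growth, was at 36.6, 41.2 and 44.6 and then 32.5, 18.4 and 29.1 CPM (-0.61 ± 0.22, adjusted p = 0.027). Its call ended without diluent replicate 2 (0.059) or 3 (0.084) or prexasertib replicate 2 (0.12), or with a filter of 5 CPM in 3 libraries (0.058). KIF25 rose from 0 to 14 counts over the group, at least 5.5-fold, and passed the low-count filter through U937 libraries only. KIF7, KIF9, KIF21B and KIF27 were not called.

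**Figure D3:**
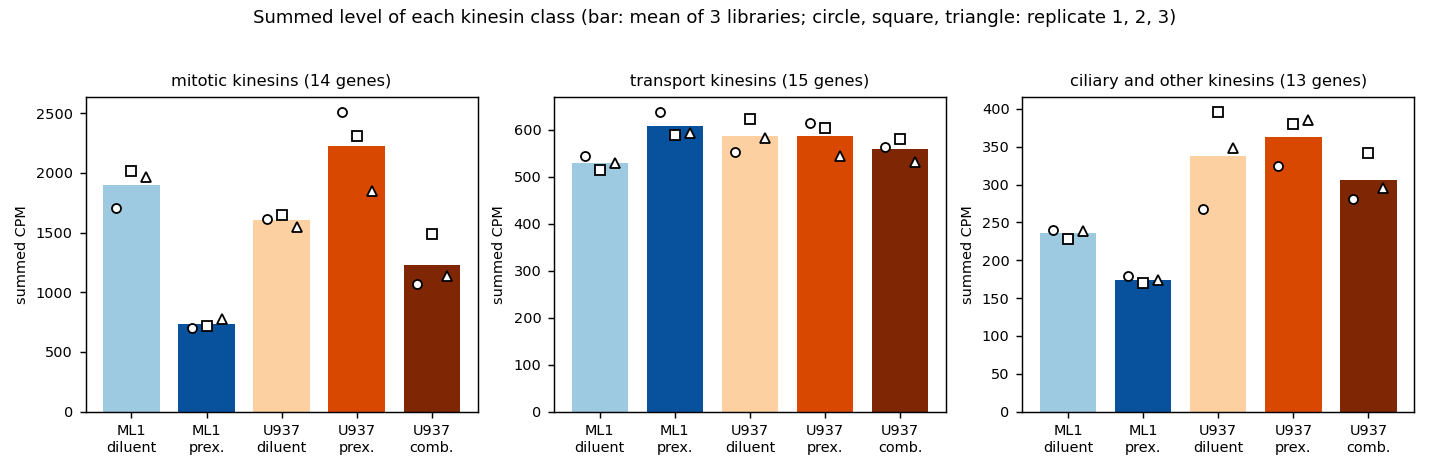
Summed CPM of the mitotic, transport and other kinesins by group; bars are means of 3 libraries and symbols single libraries. The mitotic sum falls in ML1 from 1705 to 2016 CPM to 701.9 to 779.8 CPM with prexasertib and goes up in U937 to 1846 to 2512 CPM, while the transport sum stays between 514.2 and 639 CPM in all 15 libraries.

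In U937 the direction was the other one: with prexasertib 7 of 12 tested mitotic kinesins rose and 0 fell by edgeR's test, 0 also by DESeq2 and 0 at an unadjusted p under 0.05. Over all tested genes 31.1% were called (18.3% higher, 12.8% lower). The median mitotic change was 0.58 against -0.00 over all tested genes, and the class sum went from 1547 to 1646 CPM to 1846 to 2512 CPM. The U937 prexasertib libraries were uneven, with replicate 3 the lowest of them in all 12 tested mitotic kinesins. Without prexasertib replicate 1 the median was 0.37 and 5 were called.

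KIF20A went from 111, 101 and 94.8 CPM to 226, 224 and 150 CPM, a rise of 1.96-fold (0.97 ± 0.18, adjusted p = 0.00084). KIF18A went from 25.9, 23.7 and 26 to 49.8, 59 and 32.8 CPM (0.91 ± 0.21, adjusted p = 0.0041). KIFC1 went from 137, 128 and 107 to 253, 245 and 159 CPM (0.82 ± 0.18, adjusted p = 0.0036). In each, replicate 3 was the lowest treated library and still above every diluent library. KIF18B went from 71.8, 98 and 88.9 to 161, 139 and 117 CPM (0.69 ± 0.16, adjusted p = 0.0052). KIF23 went from 134, 142 and 129 to 231, 226 and 169 CPM (0.63 ± 0.16, adjusted p = 0.0066). Both kept their groups apart in the same way.

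KIF14 was at 141, 142 and 136 CPM and then at 280, 201 and 159 CPM (0.61 ± 0.17, adjusted p = 0.012). That call ended without diluent replicate 3 (0.052) or prexasertib replicate 1 (log2 fold change 0.33, 0.097). KIF2C was at 271, 256 and 257 and then at 440, 378 and 327 CPM (0.54 ± 0.14, adjusted p = 0.0085), and its call ended without prexasertib replicate 1 (0.051). The 5 mitotic kinesins not called were KIF11 (0.17 ± 0.14, adjusted p = 0.36), KIF15 (-0.08 ± 0.13, 0.68), KIF4A (0.19 ± 0.13, 0.27), KIF20B (0.20 ± 0.18, 0.4) and KIF22 (0.23 ± 0.13, 0.17). KIF11 and KIF15, the pair that pushes spindle poles apart, were not called, while KIFC1, which gathers the poles, rose.

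Among partners, 13 of 22 spindle and midzone genes rose and 0 fell, beside 18.3% and 12.8% of all tested genes. At an unadjusted p under 0.05 there were 16 of 22, against 7398 of all 17243 tested genes. The mitotic kinases AURKA (1.37 ± 0.19, adjusted p = 5.8e-05) and PLK1 (1.08 ± 0.19, 0.00068) had larger estimates than any kinesin of the class. CENPE went from 88.9, 76.6 and 79.2 to 173, 147 and 91.7 CPM (0.75 ± 0.19, adjusted p = 0.0081). S phase genes did not share this: 0 of 16 rose and 4 fell, among them POLA1 (-0.73), TYMS (-0.62) and MCM6 (-0.43). MKI67 was at 571, 879 and 752 and then 1100, 1040 and 811 CPM and was not called (0.43 ± 0.18, adjusted p = 0.075). FOXM1 (0.05 ± 0.15, adjusted p = 0.81) and MYBL2 (-0.25 ± 0.16, 0.26) were not called either, while LIN52 (0.95), NFYB (0.55) and NFYC (0.54) were among 6 of 16 regulators that rose. The 2 regulators that fell were a share near the 12.8% of all tested genes. Of the 10 myeloid markers 1 rose and 1 fell, both below the shares of all tested genes.

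The difference between the lines was tested directly as the U937 effect minus the ML1 effect. All 12 mitotic kinesins were called higher, against 12.4% of all tested genes (24.7% either way), with a median difference of 1.94 against 0.03 over all genes. It was largest for KIF20A (2.82 ± 0.25, adjusted p = 3.2e-07), KIF14 (2.40 ± 0.24, 1.2e-06) and KIF18A (2.20 ± 0.30, 2.8e-05) and smallest for KIF22 (1.14 ± 0.18, 0.00012). KIF15, which was not called in U937, differed by 1.83 ± 0.19 (1.4e-06). Of 14 transport kinesins 2 were called, both lower: KIFC2 (-0.65 ± 0.15, adjusted p = 0.0042) and low-count KIF17 (-2.56 ± 0.84, 0.033). That count is 1 without ML1 diluent replicate 2 or 3 or ML1 prexasertib replicate 1, 3 without U937 prexasertib replicate 2 and 4 without U937 prexasertib replicate 3, and the KIF17 call also ended without U937 diluent replicate 1 (0.054). KIF24 (1.62 ± 0.31, adjusted p = 0.00083) and KIF2A (0.62 ± 0.16, 0.0092) were the only others called. The difference shares its libraries with the 2 effects it is made from and is not further evidence for either.

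Of 14 tested transport kinesins in U937, 3 rose and 2 fell with prexasertib, shares near the 18.3% higher and 12.8% lower of all tested genes. Their median change was -0.01 and their sum 545.1 to 614.8 CPM against 552.5 to 623.9 with diluent. KIFC3 went from 2.69, 1.82 and 2.35 to 11.5, 13.4 and 9.08 CPM, a rise of 4.94-fold (2.30 ± 0.21, adjusted p = 1.7e-06). Among transport kinesins above 1 CPM in all groups it had the largest rise in both lines, and the difference of its effect between the lines was not called (0.55 ± 0.28, adjusted p = 0.17). KIF13B went from 29.4, 27.6 and 26.6 to 42.5, 61.6 and 35.6 CPM (0.74 ± 0.16, adjusted p = 0.0024). KIF5A had 1, 0 and 0 counts with diluent and 66, 77 and 64 with prexasertib, a ratio of 178 (95% counting interval 31.6 to 7070), yet it reached only 0.971, 1.17 and 0.964 CPM. Even with that rise it stood at 0.165 CPM per kb, far under KIF5B at 36.3. KIF5A was above the low-count filter in every library of U937 prexasertib and of no other group. Its place among the 3 that rose was thus in part set by the filter. With a filter of 5 CPM in 3 libraries 2 transport kinesins rose and 2 fell.

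Against these, KIF1C fell from 85.8, 126 and 105 to 70.4, 58.7 and 82.4 CPM (-0.59 ± 0.14, adjusted p = 0.0067). KIF16B fell from 14.5, 12 and 11.8 to 10.1, 7 and 7.41 CPM (-0.64 ± 0.18, adjusted p = 0.012), and its call ended without prexasertib replicate 2 (0.056). Treated and diluent libraries did not overlap in either. The other 9, KIF1B, KIF3A, KIF3B, KIF3C, KIF5B, KIF5C, KIF13A, KIF17 and KIFC2, were not called. KIF1A, the motor of synaptic vesicle precursors, had at most 6 counts in a library.

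KIF24 and KIF27, a relative of KIF7, rose in U937 with prexasertib as well. KIF24 was at 13.4, 19.3 and 17.7 and then 28.6, 46.4 and 26.1 CPM (1.01 ± 0.22, adjusted p = 0.0031). KIF27 was at 5.44, 4.28 and 5.28 and then 10.5, 16 and 8.3 CPM (1.21 ± 0.23, adjusted p = 0.001). Both had replicate 2 highest and no overlap with diluent. KIF27 shares 13.1% of its exon bases with 2 other annotated genes. KIF2A fell a little, from 97.4, 120 and 112 to 86, 78 and 93.3 CPM (-0.35 ± 0.12, adjusted p = 0.028), and KIF26B from 4.02, 3.06 and 2.93 to 2.19, 1.89 and 2.42 CPM (-0.62 ± 0.22, 0.038). The KIF2A call was lost when diluent replicate 2 or 3 or prexasertib replicate 2 was left out (0.051 to 0.092), with the filter of 5 CPM (0.064) and in a fit of these 2 groups alone (0.084). The KIF26B call was lost when diluent replicate 1 or prexasertib replicate 1 or 2 was left out (0.064 to 0.13), with no low-count filter (0.052) or that of 5 CPM (0.074), with upper-quartile scaling (0.063) and in a fit of these groups alone (0.098). KIF25 went from 6, 6 and 1 to 22, 24 and 17 counts, a ratio of 4.17 (2.27 to 8.26), and its call ended without any of these libraries but prexasertib replicate 3 (0.06 to 0.13), with DESeq2 (0.051) and with no low-count filter (0.053). KIF19, a depolymerase that sets cilium length, was under the filter, with 0, 4 and 0 counts with diluent and 29, 58 and 10 with prexasertib, a ratio of 20.9 (7.9 to 78.1) with no test. KIF26A (2 and 23 counts over the groups), KIF6 (10 and 25) and KIF12 (0 and 2) were not tested.

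With LSN622666 added to prexasertib, all 12 tested mitotic kinesins were lower in U937 than with prexasertib alone, against 17.1% of all tested genes lower (29% either way), with a median change of -0.82 against 0.01. This comparison shares the prexasertib libraries with the comparison above, so a high value in them enters both, and the median ran from -0.73 to -0.98 when 1 library was left out. The class sum was 1065 to 1491 CPM with the combination, below the 1846 to 2512 CPM of prexasertib alone.

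KIF20A stood at 60.6, 95.5 and 64 CPM with the combination and fell 2.73-fold (-1.45 ± 0.18, adjusted p = 3.5e-05). KIF18A stood at 13.7, 21.4 and 17.9 CPM (-1.42 ± 0.21, adjusted p = 0.00015), and KIF23 at 78.7, 122 and 91.3 CPM (-1.10 ± 0.16, 0.00011). Replicate 2 was the highest combination library in all 3, and still below every prexasertib library. KIF14 was at 97, 120 and 88.4 CPM (-1.07 ± 0.17, adjusted p = 0.00026). KIFC1 was at 99.9, 134 and 94 CPM, 2-fold below prexasertib alone (adjusted p = 0.00079), and KIF2C at 182, 245 and 194 CPM (-0.88 ± 0.14, 0.00027). These 6 were among the 7 that had risen with prexasertib, and the 7th, KIF18B, was the weakest here. It stood at 85.7, 128 and 88.3 CPM, overlapped prexasertib and was called (-0.47 ± 0.16, adjusted p = 0.04), but not without prexasertib replicate 1 or 2 or combination replicate 1 or 3 (0.09 to 0.16), with upper-quartile scaling (0.053) or in a fit of these groups alone (0.1). KIF11 (-0.77 ± 0.14, adjusted p = 0.00065), KIF20B (-0.74), KIF4A (-0.64), KIF15 (-0.57) and KIF22 (-0.54), the 5 that prexasertib alone had not moved past the threshold, fell as well.

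Spindle partners went the same way, with 18 of 22 lower and 0 higher, beside 17.1% and 11.9% of all tested genes. At an unadjusted p under 0.05 there were 21 of 22, against 7006 of all 17243 tested genes. The smallest p-values were those of AURKA (-1.60 ± 0.19, adjusted p = 2.2e-05), HMMR (-0.98) and RACGAP1 (-1.10). CENPE was at 58.5, 77.8 and 53.4 CPM (-1.12 ± 0.19, adjusted p = 0.00051) and MKI67 at 624, 791 and 567 CPM (-0.58 ± 0.18, 0.022). Of 16 transcription regulators 8 were lower and 1 higher, beside 17.1% and 11.9% of all tested genes. NFYB, a subunit of NF-Y, was among those that fell (-1.07 ± 0.14, adjusted p = 5.4e-05). FOXM1 (-0.40 ± 0.15, adjusted p = 0.056) and MYBL2 (-0.28 ± 0.16, 0.21) were not called. Of 16 S phase genes 3 fell, a share near the 17.1% of all tested genes.

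Of 14 tested transport kinesins 3 were higher and 4 lower than with prexasertib alone, beside 11.9% and 17.1% of all tested genes, with a median of -0.00. KIFC3 returned to 2.37, 2.09 and 1.56 CPM, 5.65-fold below prexasertib alone (-2.50 ± 0.21, adjusted p = 1.8e-06). KIF5A fell to 7, 14 and 4 counts, 9.2-fold lower (95% counting interval 6.06 to 14.5). Its place among the 4 lower was in part set by the low-count filter, which it passed through the prexasertib group. With a filter of 5 CPM in 3 libraries 3 transport kinesins were higher and 3 lower. KIF5B, whose light chain partners link it to cargo, was at 138, 161 and 128 CPM, below 237, 222 and 181 with prexasertib (-0.58 ± 0.13, adjusted p = 0.0028). KIF13B (-0.49 ± 0.16, adjusted p = 0.027) overlapped, and its change was -0.23 (0.23) without prexasertib replicate 2, and the call also ended without combination replicate 2 (0.06) or 3 (0.11), with upper-quartile scaling (0.052) and in a fit of these groups alone (0.11).

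KIFC2 had the largest rise of a transport kinesin, at 78.7, 76.3 and 69.3 CPM against 53.6, 46.8 and 43.3 (0.64 ± 0.11, adjusted p = 0.00041). KIF1C, at 94.8, 105 and 105 CPM, rose by 0.52 ± 0.14 (adjusted p = 0.012) and KIF3A, at 6.95, 6.81 and 7.18 CPM, by 0.46 ± 0.14 (0.024). All 3 had every combination library above every prexasertib library. Without prexasertib replicate 2 the KIF1C call (0.068) and the KIF3A call (0.083) ended and the transport count was 4 in place of 7. The KIF3A call ended without prexasertib replicate 3 or combination replicate 1 or 3 too (0.051 to 0.077), and in a fit of these groups alone (0.097). Of the others KIF24, at 14.8, 17.6 and 15.1 CPM, fell (-1.09 ± 0.22, adjusted p = 0.0016), as did KIF27 (-0.75 ± 0.22, 0.019), which was not called without prexasertib replicate 2 (log2 fold change -0.44, 0.16) or combination replicate 2 (0.054) or 3 (0.066), or in a fit of these groups alone (0.056). KIF26B rose (0.85 ± 0.22, adjusted p = 0.0075). KIF19 had 10 counts with the combination against 97, 10.8-fold fewer per library total (5.62 to 23.2), with no test.

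**Figure D4:**
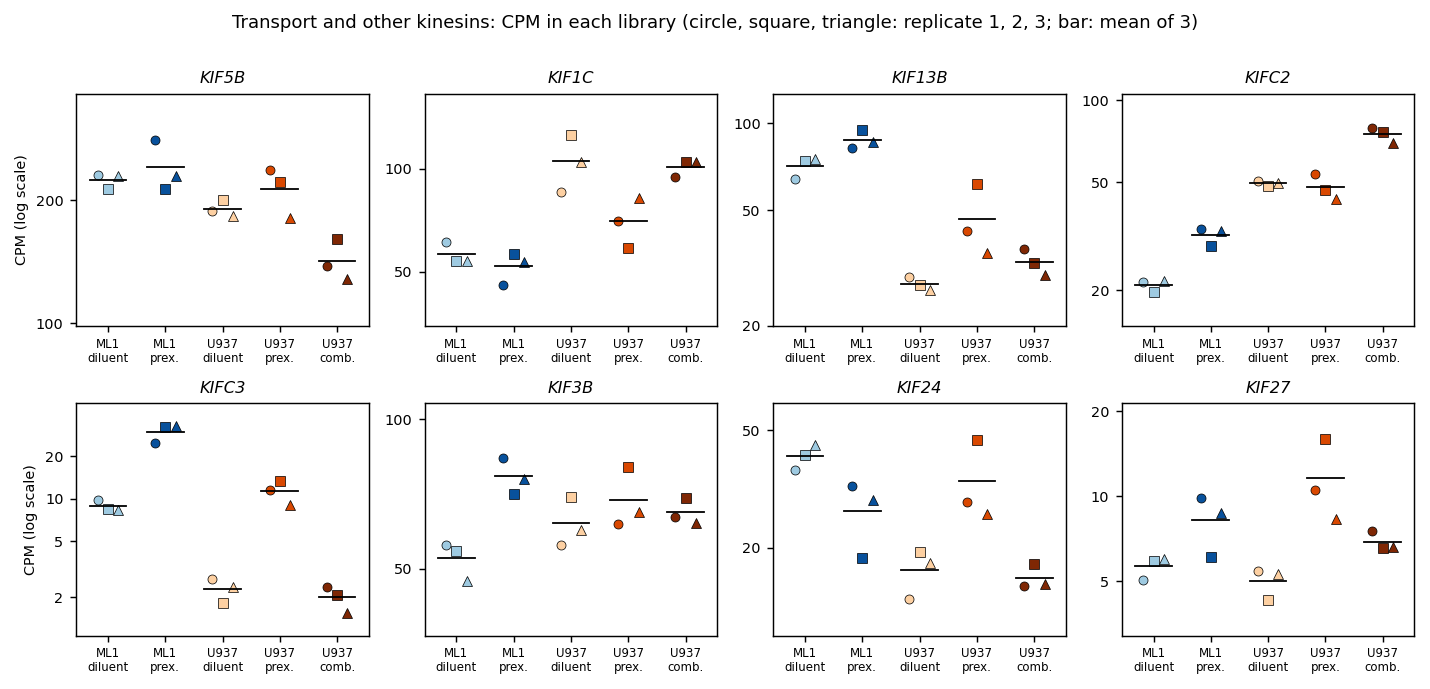
CPM on a log scale in each library for 6 transport kinesins and for KIF24 and KIF27, by group, with replicates 1 to 3 as symbols and their mean as a bar. KIFC3 is higher with prexasertib in both lines and back at 1.56 to 2.37 CPM with the combination, and KIFC2 in U937 is highest with the combination.

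Set against diluent, the combination showed smaller changes of the mitotic kinesins. Of 12 tested, 3 were lower against 4.11% of all tested genes (11% either way), with a median of -0.47 against 0.00. An unadjusted p under 0.05 was found for 10 of the 12, against 4904 of all 17243 tested genes. KIF15 went from 119, 114 and 112 to 65.6, 84.9 and 69.3 CPM (-0.65 ± 0.13, adjusted p = 0.0054) and KIF11 from 139, 142 and 129 to 77, 110 and 83.2 CPM (-0.60 ± 0.14, 0.011). KIF4A was at 119, 160 and 122 CPM (-0.45 ± 0.13, adjusted p = 0.037). All 3 are kinesins that prexasertib alone had not raised past the threshold. The count ran from 1 without combination replicate 1 to 7 without combination replicate 2, and was 2 without diluent replicate 1 or 2 or combination replicate 3. It was 5 with DESeq2. KIF18B was the only tested mitotic kinesin above diluent (0.22 ± 0.16, adjusted p = 0.39).

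Of 14 transport kinesins 3 were called against diluent (2 higher, 1 lower), where 11% of all tested genes were called (6.88% higher, 4.11% lower). KIFC2 was higher than its 50.3, 48.4 and 49.7 CPM with diluent (0.60 ± 0.11, adjusted p = 0.003) and kept its call in all 6 runs without 1 library. KIF5A had 25 counts against 1, a ratio of 19.4 (95% counting interval 3.17 to 795), and KIF5B was lower (-0.42 ± 0.13, adjusted p = 0.043). The KIF5A call ended without any library but combination replicate 3 (0.051 to 0.12) and the KIF5B call without any but combination replicate 2 (0.052 to 0.13). The count was therefore 1 without diluent replicate 1, 2 or 3 or combination replicate 1 and 2 without combination replicate 2 or 3. KIF2A (-0.41 ± 0.12, adjusted p = 0.032) was the only other kinesin called, and its call ended without diluent replicate 2 or 3 or combination replicate 1 or 3 (0.058 to 0.12). In a fit of these groups alone the KIF2A (0.053) and KIF4A (0.056) calls ended, and with the filter of 5 CPM those of KIF2A (0.074), KIF4A (0.085) and KIF5B (0.14). Upper-quartile scaling moved the median of all genes by 0.11 in this comparison and ended the calls of KIF4A, KIF5B and KIF2A.

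The machinery that works with transport kinesins was read from lists of 18 cargo adaptors and light chains and 21 dynein and dynactin genes. In ML1 with prexasertib 7 of 17 tested adaptors rose and 3 fell, beside 25.3% and 23.5% of all tested genes. The smallest p-value was that of SPAG9, a scaffold that binds kinesin-1 and JNK, from a mean of 103 to 471 CPM (2.19 ± 0.18, adjusted p = 1.8e-08). PLEKHM2, which couples lysosomes to kinesin-1, rose too (1.74 ± 0.16, adjusted p = 8.2e-08). In U937 2 adaptors rose and 1 fell with prexasertib (18.3% and 12.8% of all tested genes), among them PLEKHM2 (0.87 ± 0.16, adjusted p = 0.00074), which rose, and KLC3, a light chain, which fell (-0.67 ± 0.18, 0.011). The SPAG9 effect was lower in U937 by the test of the difference (-1.79 ± 0.24, adjusted p = 2.8e-05), as was that of PLEKHM2 (-0.88 ± 0.22, 0.0065). With the combination against prexasertib MAPK8IP3 (0.90 ± 0.10, adjusted p = 1.8e-05) and MAPK8IP2 (1.94 ± 0.24, 3.9e-05), JNK scaffolds that ride on kinesin-1, rose. Dynein and dynactin, the minus-end counterpart, had 4 of 21 higher and 4 lower in ML1, both below the shares of all tested genes. In U937 1 was higher and 4 lower with prexasertib, and 1 higher and 5 lower with the combination against prexasertib (11.9% higher and 17.1% lower of all tested genes). DYNLT1, a light chain, was their most significant change in ML1 (1.26 ± 0.13, adjusted p = 4.8e-07), and DYNC1I2, an intermediate chain, in U937 (-0.41 ± 0.11, 0.011).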

How the data were processed

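RNA-seq read counts per gene symbol were deposited by the authors as 1 table of 15 libraries. Per the submitters' processing notes, reads were aligned with TopHat2 2.0.14 and Bowtie2 2.2.6 and counted with featureCounts 1.4.6. The sources used here give neither annotation nor strand setting, and the kit named in the labels' protocols does not mark strand.

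All 15 libraries were fitted together by edgeR 4.0.16's quasi-likelihood test (R 4.3.3) after TMM scaling and a low-count filter by group, with 10 residual degrees of freedom, Benjamini-Hochberg adjustment over 17243 genes and a threshold of 0.05. The code was tested on simulated counts. Members and lists were chosen with earlier results of these data known. The naming rule took up to 6 called kinesins per class and direction by size, where the compared groups averaged 1 CPM or more, besides CENPE, MKI67, FOXM1, MYBL2 and up to 3 genes of each partner list by smallest p (1 such gene is not reported here); further kinesins were described to account for every member. Low counts are given as ratios with exact 95% intervals, which cover counting error only. Exon lengths and overlaps come from GENCODE release 29, which held all 42 kinesins. Alternatives were DESeq2 1.42.0, other scaling and filters, a fold threshold, a replicate block and leaving out each library.

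Replicate numbers come from the labels. Deviations from group means correlated by 0.409, 0.37 and 0.384 between same-numbered U937 prexasertib and combination libraries, and no other pair of groups had all 3 correlations above 0.1.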

Additional observations from a re-analysis of the deposited data

Results flagged for a closer look

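The effect of prexasertib differed between U937 and ML1 for 16 kinesins by the edgeR test of the difference itself (U937 minus ML1, log2 scale). Mitotic kinesins had the higher effect in U937 in all 12 tested cases: KIF20A (2.82), KIF14 (2.40), KIF18A (2.20), KIFC1 (1.97), KIF18B (1.97), KIF23 (1.96), KIF11 (1.91), KIF4A (1.90), KIF15 (1.83), KIF2C (1.76), KIF20B (1.40) and KIF22 (1.14). The centriole kinesin KIF24 (1.62) and the depolymerase KIF2A (0.62) differed in the same direction. The transport kinesins KIFC2 (-0.65) and KIF17 (-2.56) had the lower effect in U937. Groups of 3 libraries were not tested for single outlying libraries.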

How the results depend on the processing

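Depth limited the tests of 7 kinesins under the low-count filter, and precision rests on 3 libraries a group. No kinesin called in a comparison reversed direction there under any alternative run, and kinesins that were not called were not followed. Transport medians near 0 changed sign with upper-quartile scaling, from -0.01 to 0.03 in U937 with prexasertib and from -0.03 to 0.08 for the combination against diluent. Counts of called mitotic and transport kinesins stayed within 1.5 times in 87 of 102 comparisons with another setting and in 73 of 84 with 1 library left out. Requiring an absolute log2 fold change of at least 1 left 0 mitotic and 2 transport kinesins in U937 with prexasertib, 4 transport kinesins in ML1, 5 mitotic and 2 transport for the combination against prexasertib, 0 and 1 for the combination against diluent, 1 transport for the difference between lines, and 1 mitotic for U937 against ML1. Requiring 5 CPM in 3 libraries left 4 transport kinesins in ML1, 1 for the combination against diluent and 1 for the difference between lines. For the combination against diluent, 5 mitotic kinesins were called by DESeq2, 5 with its size factors in edgeR and 9 with a replicate block, although these groups share only a number. The block moved no other mitotic or transport count by over 1.5 times and ended no call of a kinesin. Leaving out 1 library gave 4 to 7 transport kinesins for the combination against prexasertib, 1 to 7 mitotic and 1 to 2 transport for the combination against diluent, and 1 to 4 transport for the difference between lines. Apart from fewer genes tested or fewer samples, the cause of these shifts was not tested.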
